A study of Mus musculus with 65 samples.

Results

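The subunits of the glutamate, GABA and glycine receptors were followed while mouse embryonic stem cells differentiated in retinoic acid. Members were taken by symbol from the gene count files: the series Gria, Grik, Grin, Grm and Grid for glutamate, Gabr and Gabbr for GABA, and Glra and Glrb for glycine. The symbols matched 53 of the 24465 genes listed. Of these, 52 encode subunits in 11 subfamilies, and 1 encodes a protein that binds a receptor and is counted apart (highest level 0.162 CPM in any library).

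RNA and chromatin were assayed in mouse embryonic stem cells at day 0, when leukaemia inhibitory factor keeps them pluripotent, and in rotating embryoid bodies after days 3 and 6 in 10 µM retinoic acid without that factor. Of 17 RNA libraries, 6 carry a sequencing date in 2019 and are wild-type duplicates at days 0, 3 and 6, and 11 carry a date in 2020. Those of 2020 hold days 0 and 6 of wild type and of a pair of CRISPR/Cas9 lines, 1 with H3.3A knocked out and 1 labelled H3.3K27A. Each group of 2020 has 2 libraries except wild type at day 0, which has 1, so its values carry no spread of their own. Chromatin immunoprecipitation (ChIP) was done on wild-type cells alone (days 0 and 6, biological duplicates), with targets that the labels name H3, H3.3, H3K27me3 and H3.3K27me3. The labels do not say whether the RNA duplicates came from separate cultures or how many clones each line stands for, so the spread behind each p-value is that between these libraries, which may be technical.

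Glutamate opens the AMPA, kainate and NMDA receptor channels, which carry most fast excitation in the brain, and acts more slowly through metabotropic receptors coupled to G proteins. GABA and glycine open chloride channels, the GABA-A and glycine receptors, while GABA-B receptors are coupled to G proteins. Trimethylation of lysine 27 of histone H3 (H3K27me3) is laid down by Polycomb and covers the promoters of many developmental genes in stem cells, and H3.3 is a histone H3 variant placed outside DNA replication.

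The libraries held 6965704 to 12711698 gene counts in 2019 and 14270549 to 22032871 in 2020, and the joined ChIP libraries held 30449762 to 74229689 tags. Levels are given as CPM, counts scaled to a common library size and for composition, and log2 changes with their standard error (SE) from edgeR's quasi-likelihood test with Benjamini-Hochberg adjusted p-values over all genes tested. A gene is called changed below an adjusted p of 0.05. Pluripotency markers, which check the day 0 label, summed to 5780 to 7210 CPM at day 0 and 142 to 560 CPM at day 6. H3f3a, which encodes H3.3A, stood at 20.9 to 23.1 CPM in the knockout, 20.4 to 24.2 CPM in the H3.3K27A line and 114 to 188 CPM in wild type, so its RNA was low in both lines. The knockout's day 6 library 1 stood apart from library 2: summed endoderm markers reached 1370 against 718 CPM, trophoblast and surface ectoderm markers 936 against 399 CPM, and neuron markers 228 against 654 CPM.

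Zeros in these files need care. Of the 24465 symbols, 3712 (15.2%) were listed at 0 in every RNA library. These included Ctcf, Cltc, Chd4, Csnk1a1 and Atp6v1a, which every cell uses. How common such zeros are among genes of that kind was not measured. The subunits Gabra3, Gabra4, Gabra6, Glra2, Glrb, Grik2 and Grm7 were among them and are therefore only listed at 0. All 7 have 2 or more curated transcripts in RefSeq, as do 23 of the other 45 subunits, and the part of transcript number in the zeros was not tested. Of the remaining subunits, 24 stayed below 1 CPM in every library and 21 reached it in at least 1.

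The 250 bases upstream of the start site are shown for 6 subunits on which the results below turn. They are Grin1 and Grik3, high in stem cells; Grm2, with the steepest well-counted rise in 2019; Gabbr1 and Grik5, the most abundant subunits per kilobase; and Gabrp, which differed between the lines. Each reads 5′ to 3′ on the strand of the gene and ends just before the start site, with every CG in capitals, as RefSeq gives it for GRCm38.p6. The positions are chr2:25319188-25319437 (minus strand) for Grin1, chr4:125490446-125490695 (plus) for Grik3, chr9:106656110-106656359 (minus) for Grm2, chr17:37045716-37045965 (plus) for Gabbr1, chr7:25072370-25072619 (minus) for Grik5 and chr11:33578958-33579207 (minus) for Gabrp.
Grin1: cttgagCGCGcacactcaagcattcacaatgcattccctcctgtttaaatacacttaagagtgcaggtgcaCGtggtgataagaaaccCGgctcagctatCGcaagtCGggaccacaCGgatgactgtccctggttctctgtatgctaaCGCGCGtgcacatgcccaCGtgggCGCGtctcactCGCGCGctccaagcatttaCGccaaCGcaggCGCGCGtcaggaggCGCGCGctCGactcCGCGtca
Grik3: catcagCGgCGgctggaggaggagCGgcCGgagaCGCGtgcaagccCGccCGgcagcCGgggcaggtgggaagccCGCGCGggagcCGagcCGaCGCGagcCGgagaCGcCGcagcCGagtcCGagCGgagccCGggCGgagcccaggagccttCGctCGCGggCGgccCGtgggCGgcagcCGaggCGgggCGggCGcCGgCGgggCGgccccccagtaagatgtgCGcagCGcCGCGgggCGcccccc
Grm2: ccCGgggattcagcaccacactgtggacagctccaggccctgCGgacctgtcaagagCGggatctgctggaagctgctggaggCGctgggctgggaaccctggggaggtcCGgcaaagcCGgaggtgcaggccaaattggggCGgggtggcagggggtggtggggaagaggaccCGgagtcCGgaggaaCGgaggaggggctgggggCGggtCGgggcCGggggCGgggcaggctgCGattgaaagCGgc
Gabbr1: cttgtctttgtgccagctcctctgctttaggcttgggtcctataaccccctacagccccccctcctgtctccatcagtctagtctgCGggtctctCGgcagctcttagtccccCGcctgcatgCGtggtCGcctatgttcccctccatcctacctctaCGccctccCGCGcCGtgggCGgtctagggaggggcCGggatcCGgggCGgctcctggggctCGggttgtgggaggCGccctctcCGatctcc
Grik5: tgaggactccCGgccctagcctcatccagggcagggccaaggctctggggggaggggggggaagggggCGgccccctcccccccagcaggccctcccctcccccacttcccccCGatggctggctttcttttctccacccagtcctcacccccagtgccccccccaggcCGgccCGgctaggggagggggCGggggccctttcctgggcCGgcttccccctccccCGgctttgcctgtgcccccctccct
Gabrp: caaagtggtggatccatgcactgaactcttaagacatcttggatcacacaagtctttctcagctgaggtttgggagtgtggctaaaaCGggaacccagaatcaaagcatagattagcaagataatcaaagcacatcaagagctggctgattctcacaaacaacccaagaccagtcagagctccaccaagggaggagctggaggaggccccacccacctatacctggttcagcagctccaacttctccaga
Grik3 held 42 CG pairs in these bases, Grin1 27, Grm2 and Gabbr1 16 each, Grik5 8 and Gabrp 1. The GC content ran from 82.0% for Grik3 to 49.2% for Gabrp.

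In wild-type cells of 2019, most subunits with enough reads to test rose between days 0 and 6, and the NMDA receptor core subunit Grin1 fell. The course was not steady. Grin1 and Grik3 were high in stem cells, dropped at day 3 and rose again by day 6, whereas Grik5, Grik4, Gria4, Grin2c and Grm4 were higher at day 3 than day 0 and higher again at day 6. Glra1, Gria1, Gabra5 and Grm2 were called higher from day 3 to day 6 and not from day 0 to day 3. The day 3 calls of Gria4 and Grm4 (0.78 each) did not hold with DESeq2. The low-count filter passed 18 of 52 subunits, and a subunit near 0 at day 0 passed through the day where it is high, so the counts that follow describe the tested ones.

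From day 0 to day 3, 7 of the 18 tested were called higher and 5 lower, where 71.4% of all genes tested were called (37.6% higher, 33.8% lower). From day 3 to day 6, 14 were higher and 0 lower, against 57.3% of all genes (29.4% higher, 27.9% lower); at an unadjusted p below 0.05 there were 15 in all, and DESeq2 called 14. From day 0 to day 6, 15 were higher and 1 lower, against 78.0% of all genes (41.4% higher, 36.6% lower). The median log2 change of the tested subunits from day 0 to day 6 was 2.60, beside 0.09 for all genes tested.

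**Figure D1:**
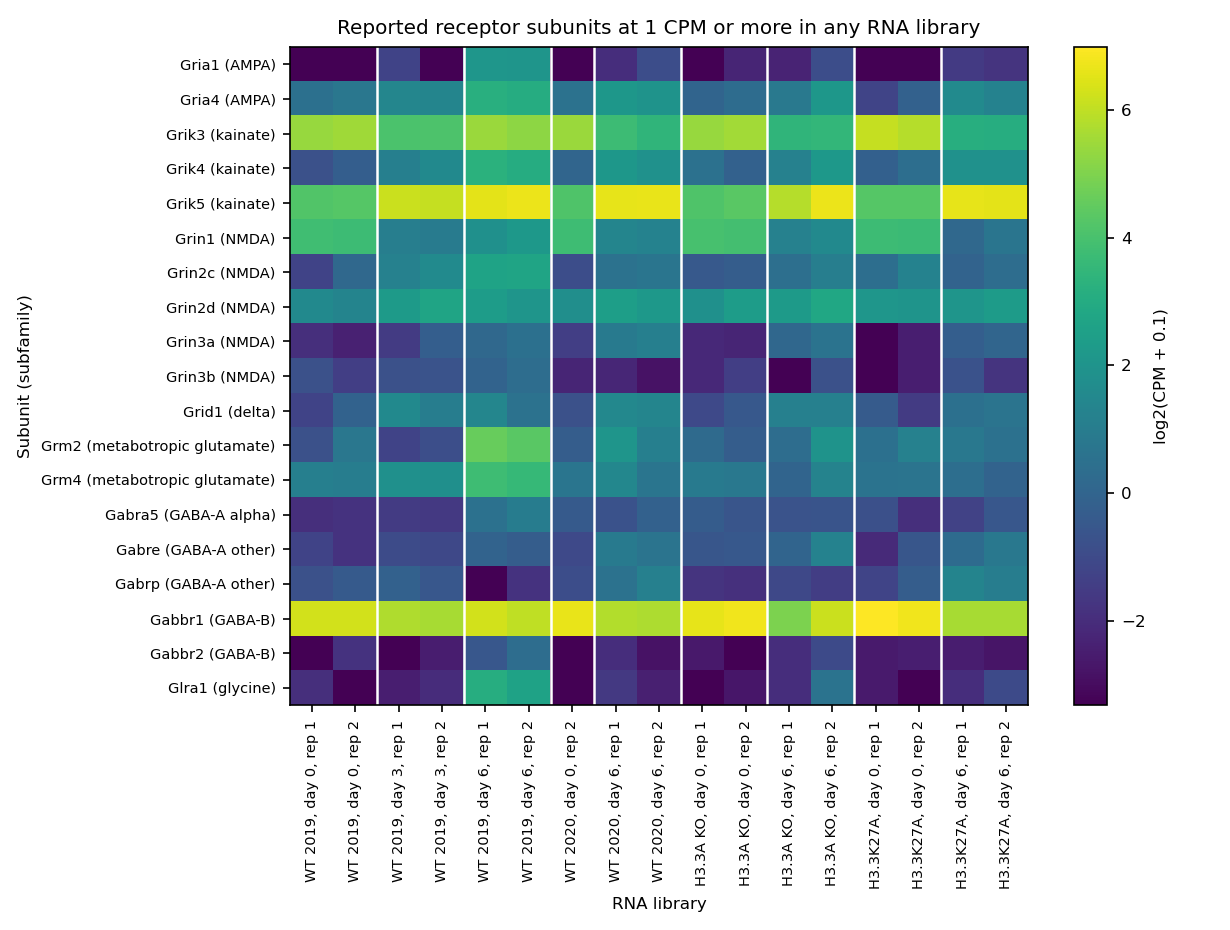
Level of 19 subunits that reached 1 CPM in any library, as log2(CPM + 0.1), in each of the 17 RNA libraries (columns, by group) with subunits in rows. Grik5 and Gabbr1 are high throughout, and Glra1, Gria1 and Grm2 are high in the 2 day 6 libraries of 2019.

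Grin1 encodes the obligatory subunit of NMDA receptors. Its level was 14 and 13.2 CPM at day 0 in 2019, 2.02 and 1.88 CPM at day 3 and 3.54 and 4.39 CPM at day 6. The day 0 libraries were the highest, and no groups overlapped. It fell by day 3 (log2 change -2.79 ± 0.23 SE, edgeR adjusted p = 2.07e-07), rose from day 3 to day 6 (1.01 ± 0.26, 0.00473) and ended below day 0 (-1.78 ± 0.20, 3.81e-06).

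The other NMDA subunits moved the opposite way or were barely counted. Grin2c, a subunit typical of cerebellar receptors, stood at 0.321 and 1.03 CPM at day 0, 2.19 and 2.93 CPM at day 3 and 6.2 and 6.4 CPM at day 6, without overlap. Its change from day 0 to day 6 was 3.03 ± 0.38 (SE, edgeR adjusted p = 9.43e-06). Grin2d, a subunit typical of the embryonic brain, went from 2.89 and 2.44 CPM to 5.17 and 4.11 CPM, a smaller rise (0.83 ± 0.29, edgeR adjusted p = 0.0182). Grin3a, which lowers calcium entry through NMDA receptors, had 2 counts at day 0 and 28 at day 6, a ratio of 9.66 (95% counting interval 2.44 to 83.7). Grin2a and Grin2b, main partners of Grin1 in the forebrain, did not exceed 0.324 and 0.325 CPM in any library and were not tested.

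Among AMPA receptor subunits, Gria4 was the most abundant over all libraries, with a mean of 2.89 CPM. In 2019 it read 1.29 and 1.59 CPM at day 0, 2.59 and 2.48 CPM at day 3 and 8.93 and 8.32 CPM at day 6. Each day lay above the one before without overlap, and the change from day 0 to day 6 was 2.54 ± 0.27 (SE, edgeR adjusted p = 1.78e-06). Gria1, which is regulated at many excitatory synapses, was at 0 in both day 0 libraries and at 4.21 and 4.02 CPM at day 6. It was at least 23.2-fold higher at day 6, taking 3 counts over the group as the floor of day 0 (edgeR adjusted p = 1.66e-05). Gria2, the subunit that makes AMPA receptors impermeable to calcium, was detected at 0.812 and 0.549 CPM at day 6 of 2019 and did not pass the filter.

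Grik5, an auxiliary kainate subunit that binds glutamate with high affinity, read 18.2 and 19.2 CPM at day 0, 72.6 and 68.3 CPM at day 3 and 94.9 and 102 CPM at day 6 of 2019. Most of its rise was present at day 3 (1.91 ± 0.10 SE, edgeR adjusted p = 3.28e-09), with a further 0.48 by day 6. Per kilobase of exon it went from 4.70 and 4.97 to 24.5 and 26.4 CPM, which placed it above every other subunit named here at day 6, Gabbr1 included at 17.5 and 14.4 CPM.

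Grik3, a low-affinity kainate subunit, was already well expressed in stem cells. Its level in 2019 was 41.6 and 45.8 CPM at day 0, 16.7 and 17.0 CPM at day 3 and 42.7 and 37.7 CPM at day 6. Day 3 was low in both libraries, and days 0 and 6 overlapped. The fall (-1.38 ± 0.11 SE, edgeR adjusted p = 2.17e-07) and the return (1.26 ± 0.11, 8.51e-07) were both called, and day 6 did not differ detectably from day 0 (-0.13 ± 0.10, 0.277). Grik4, the other high-affinity kainate subunit, rose from 0.482 and 0.750 CPM to 9.53 and 8.23 CPM (3.76 ± 0.34, edgeR adjusted p = 4.19e-07).

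Of the delta receptors, which bridge synapses, Grid1 read 0.321 and 0.843 CPM at day 0 of 2019 and 2.91 and 1.95 CPM at day 3. It stayed near that level at day 6, at 2.58 and 1.37 CPM, and day 6 lay above day 0 (1.63 ± 0.54 SE, edgeR adjusted p = 0.0147).

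Grm2 and Grm4 encode metabotropic receptors that lower transmitter release. Grm2 read 0.482 and 1.59 CPM at day 0 of 2019, 0.324 and 0.450 CPM at day 3, and 23.9 and 20.6 CPM at day 6. Day 6 stood far above both other days. The change from day 3 to day 6 was 5.80 ± 0.32 (SE, edgeR adjusted p = 1.28e-08), whereas the small fall by day 3 (-1.56) shrank to -0.30 and was no longer called without day 0 library 2. Grm4 rose from 2.09 and 1.97 CPM to 3.56 and 3.38 CPM at day 3 and 13.7 and 12 CPM at day 6. Its change from day 0 to day 6 was 2.67 ± 0.23 (edgeR adjusted p = 2.66e-07).

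Gabra5, an alpha subunit of receptors outside synapses, had 3 counts at day 0 and 39 at day 6, a ratio of 8.97 (95% counting interval 2.85 to 45.4). Gabbr1, the ligand-binding GABA-B subunit, was among the most abundant members at every day of 2019, at 78.1 and 77.8, 53.7 and 49.2, then 78.6 and 64.6 CPM. It was lower at day 3 (-0.60 ± 0.10 SE, edgeR adjusted p = 0.000168), and day 6 overlapped day 0. Its partner Gabbr2, needed to bring GABA-B receptors to the surface, reached at most 1.19 CPM.

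Glra1, the main adult glycine receptor alpha subunit, had 1 count over both day 0 libraries of 2019, 3 at day 3 and 181 at day 6. At day 6 it stood at 8.49 and 6.03 CPM, far above the other days. The ratio of day 6 to day 3 was 63.3 (95% counting interval 21.3 to 310; edgeR adjusted p = 6.88e-07). Its usual partner Glrb is listed at 0 throughout and cannot be read.

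Markers of neurons moved with the rise between days 3 and 6 in 2019. The summed CPM of 12 neuron markers was 565 to 599 at day 0, 59.6 to 87.9 at day 3 and 1470 to 1720 at day 6. Of 9 tested, 7 were lower at day 3 than day 0, and 9 were higher at day 6 than day 3. Syt1 was listed at 0 in every library, Snap25 was at 0 at days 0 and 3, and Elavl4 at days 0 and 6. The summed CPM of 6 mesenchyme markers also rose, from 8.15 to 13.2 at day 0 to 1180 to 1370 at day 6. The part of these cells in the subunit changes was not tested, and in bulk libraries more cells of a type and more RNA per cell cannot be told apart.

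**Figure D2:**
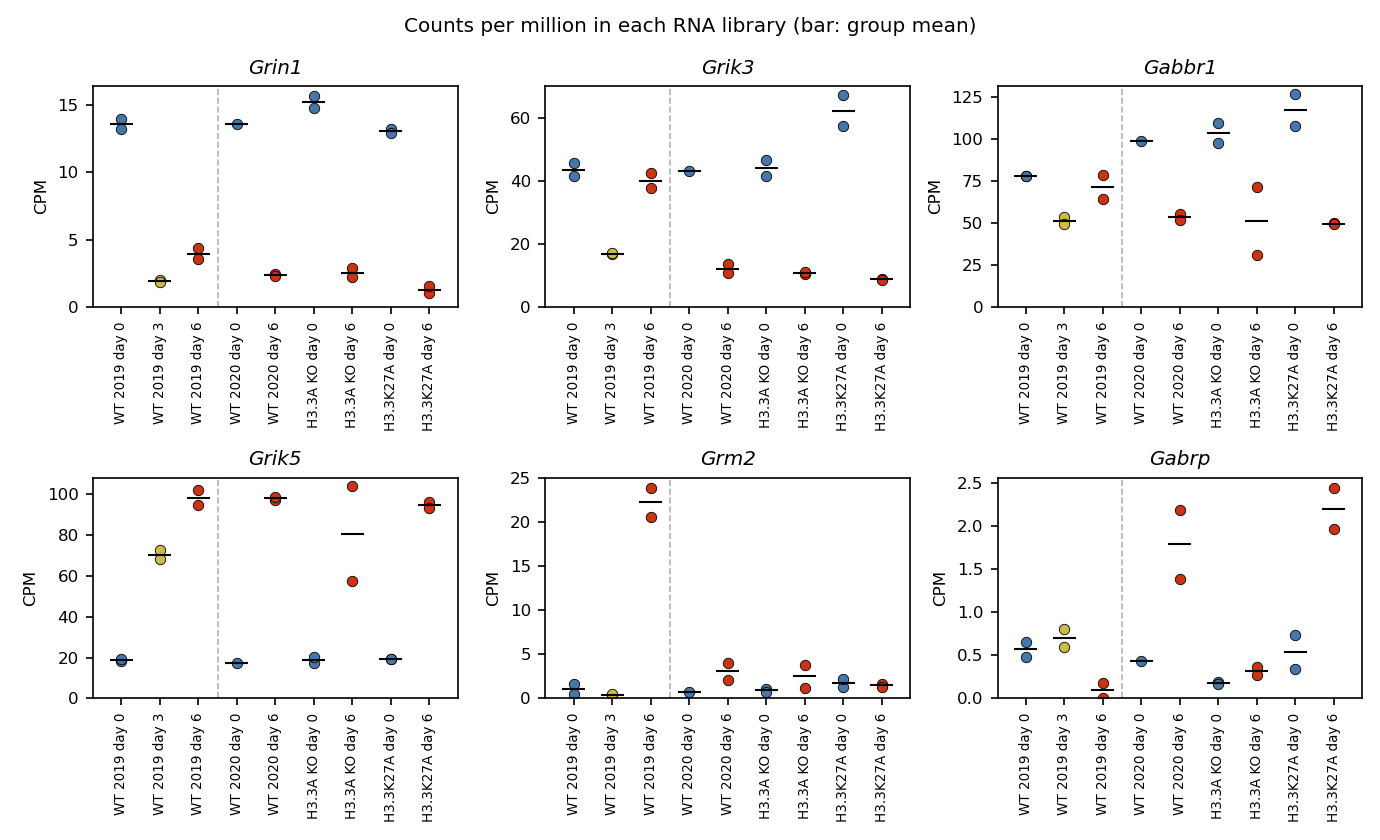
CPM of Grin1, Grik3, Gabbr1, Grik5, Grm2 and Gabrp in each RNA library, with 1 point a library, bars at group means and colours by day (blue 0, yellow 3, red 6). Grik3 returns at day 6 in 2019. In all 3 lines of 2020 Grik3 is lower at day 6 than at day 0, and Gabrp at day 6 is lower in the H3.3A knockout than in the other lines.

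In 2020, the wild-type change from day 0 to day 6 kept the fall of Grin1 and the rise of Grik5, and Grik3 ended below day 0. No day in between was sampled in that year, so whether Grik3 recovered late could not be seen. Of 25 subunits tested, 12 were called higher and 5 lower, where 70.8% of all genes tested were called (36.0% higher, 34.8% lower). The total of 17 became 11 without wild-type day 6 library 1. The median log2 change of the tested subunits was 1.72, beside 0.08 for all genes.

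Grin1 read 13.6 CPM at day 0 of 2020 and 2.46 and 2.31 CPM at day 6, a fall like that of 2019 in direction (-2.51 ± 0.22 SE, edgeR adjusted p = 5.88e-06). Grik3 read 43.4 CPM at day 0 and 13.5 and 10.7 CPM at day 6 (-1.84 ± 0.15, 3.83e-06). Its day 6 levels were thus below all libraries of 2019, day 3 included.

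Grik5 read 17.5 CPM at day 0 of 2020 and 97.3 and 99.0 CPM at day 6, close to its levels of 2019 (2.48 ± 0.30 SE, edgeR adjusted p = 5.00e-05). Grin3a went from 5 to 95 counts (2.80 ± 0.54, 0.00111) and Grid1 from 0.493 CPM to 2.70 and 2.48 CPM (2.38 ± 0.46, 0.00120). Grik4 rose from 0.931 CPM to 4.35 and 3.62 CPM (2.09 ± 0.50, 0.00389). Grm2 rose from 0.712 CPM to 4.01 and 2.09 CPM (2.10 ± 0.76, 0.0323), and without day 6 library 1 the change was 1.55 and not called. These 5 rose in both years where each was tested, with Grm2 at day 6 well below its 23.9 and 20.6 CPM of 2019.

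Some minor GABA-A subunits and Grm6 also changed in 2020. Gabrp, an epithelial pi subunit, went from 0.438 CPM to 1.39 and 2.18 CPM (2.00 ± 0.53 SE, edgeR adjusted p = 0.00700), while in 2019 it had 0.482 and 0.656 CPM at day 0 and 0 and 0.183 CPM at day 6. Gabre, the epsilon subunit, went from 0.383 CPM to 1.77 and 1.48 CPM (2.07 ± 0.75, 0.0309). Grm6, the metabotropic receptor of retinal bipolar cells, had 14 counts at day 0 and 0 at day 6, at least 12.5-fold lower (edgeR adjusted p = 0.000889). Grm4, Gabra5, Glra1, Gria1 and Grin2d were not called in 2020: Grm4, for example, read 1.53 CPM at day 0 and 2.62 and 1.53 CPM at day 6 (0.44, edgeR adjusted p = 0.477).

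The difference between the years was tested in 1 fit of the 7 wild-type libraries of days 0 and 6. Of 24 subunits tested, 6 changed less or further downward in 2020 and 2 further upward, where 33% of all genes tested were called (19.9% downward, 13.1% upward). Grik3 differed by -1.66 ± 0.19 (SE, edgeR adjusted p = 9.91e-05) and Grm4 by -2.18 ± 0.51 (0.00737). Gabbr1 differed by -0.72 ± 0.15 (0.00404). Its CPM at day 6 in 2020 was 55.5 and 52.0, beside 99.1 at day 0.

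Further calls between the years were less secure. Grik4 differed by -1.62 ± 0.56 (SE, edgeR adjusted p = 0.0462) and Gabra5 by -3.07 ± 0.96 (0.0295), the latter on 3 counts at day 0 of 2019. Gabrp differed by 4.77 ± 1.22 (0.0119), on 2 counts at day 6 of 2019. The count of 8 became 5 without day 0 library 2, day 6 library 1 or day 6 library 2 of 2019. Neuron markers summed to 238 to 425 CPM at day 6 of 2020 beside 772 at day 0, and mesenchyme markers were at 352 CPM at day 0 of 2020. Of 9 neuron markers tested from day 0 to day 6 of 2020, 2 were called higher, 2 lower and 5 not called (median log2 change -0.11). The part of these markers was not tested, and sequencing year and culture cannot be told apart.

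**Figure D3:**
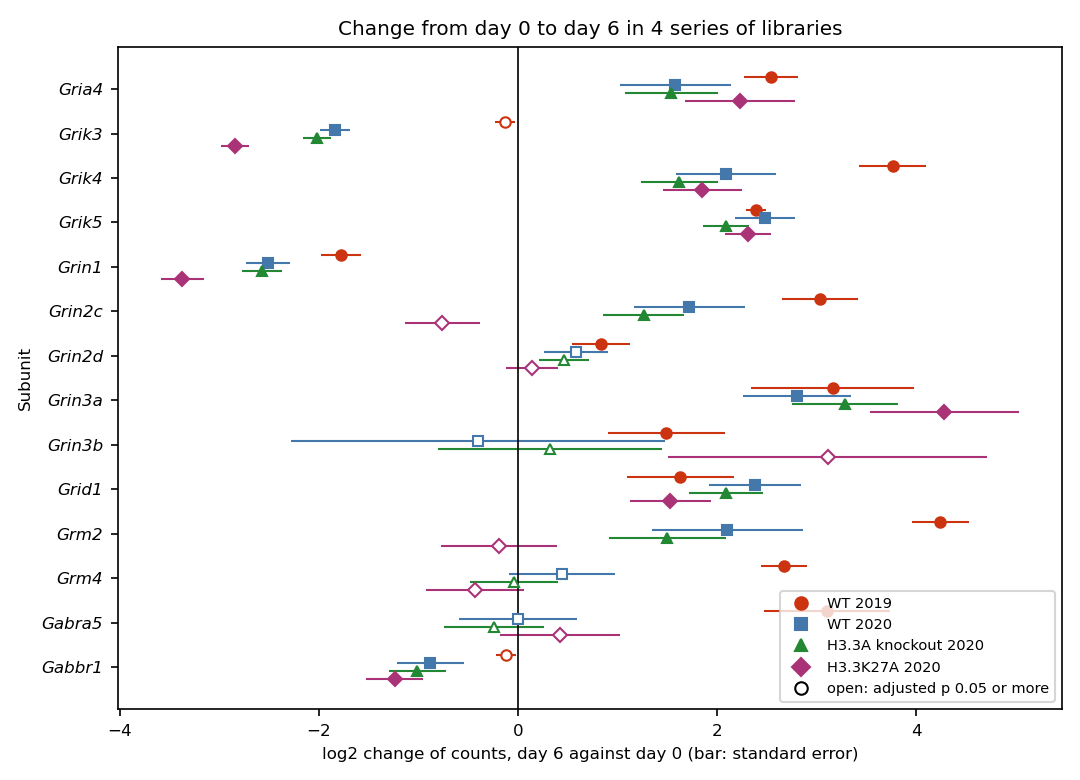
Log2 change from day 0 to day 6 (points) with its SE (bars) for 14 subunits tested in all 4 series of libraries, open where the adjusted p is 0.05 or more. Gria4, Grik4, Grik5, Grin3a and Grid1 lie to the right in every series and Grin1 to the left; values for Grin3a and Gabra5 rest on 1 to 3 day 0 counts in some series.

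In both CRISPR/Cas9 lines Grin1, Grik3 and Gabbr1 fell from day 0 to day 6 and Grik5, Grik4, Gria4, Grid1 and Gabre rose, as called in wild type of 2020. In the H3.3A knockout, 11 subunits were called higher and 5 lower at day 6 than day 0, against 77.2% of all genes tested (40.8% higher, 36.4% lower). In the H3.3K27A line, 7 were higher and 5 lower, against 76.7% of all genes (39.5% higher, 37.2% lower). The knockout count of 16 became 10 without its day 0 library 2, 19 without its day 6 library 1 and 12 without its day 6 library 2. Without day 6 library 2 of the knockout, Gria4 (0.69) and Gabre (0.58) were no longer called there. The knockout changes of other subunits moved with the day 6 library left out, from 2.00 without library 1 to 1.03 without library 2 for Grik4 and from -0.55 to -1.74 for Gabbr1, and were called in both. Gabbr1 was not called in the knockout without day 0 library 2 (-0.92). Over wild type of both years and both lines, 5 of the 18 subunits tested in all 4 were called higher in every one (27.8%, beside 28.1% of all genes) and 1, Grin1, lower in every one (5.56%, beside 27.1%). Those shares lay near or below the background, so they are no result about the subunits.

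Grin1 read 15.7 and 14.8 CPM at day 0 of the knockout and 2.2 and 2.88 CPM at day 6 (-2.57 ± 0.20 SE, edgeR adjusted p = 1.46e-06; -2.42 without day 6 library 1 and -2.79 without library 2). In the H3.3K27A line it read 13.2 and 12.9 CPM and then 1.02 and 1.52 CPM (-3.37 ± 0.22, 4.13e-07). Day 0 levels of the 3 lines ranged from 12.9 to 15.7 CPM, and the H3.3K27A libraries at day 6 were the lowest of the series. At day 6 the H3.3K27A line was below the knockout (-1.02 ± 0.23, edgeR adjusted p = 0.0160), a call that ended without H3.3K27A day 6 library 1 (-0.74). It held without either knockout day 6 library (-1.18 and -0.81).

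Grik3 read 41.8 and 46.9 CPM at day 0 of the knockout and 10.6 and 11.2 CPM at day 6 (-2.02 ± 0.14 SE, edgeR adjusted p = 5.70e-07; -2 without day 6 library 1 and -2.06 without library 2). In the H3.3K27A line it read 67.4 and 57.5 CPM at day 0, the highest values of any library, and 8.85 and 8.58 CPM at day 6 (-2.84 ± 0.14, 6.99e-08). The fall was steeper in the H3.3K27A line than in the knockout by -0.82 ± 0.19 (edgeR adjusted p = 0.0398), the 1 subunit called in a contrast where 5.39% of all genes were (3.23% higher, 2.16% lower). That call ended when any 1 of the 6 day 0 libraries of either line or day 6 libraries of the H3.3K27A line was left out, with values from -0.70 to -0.93. It also ended with the replicate number as a block (-0.82, edgeR adjusted p = 0.0682).

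Grik5 rose in both lines, from 17.5 and 20.3 CPM to 57.6 and 104 CPM in the knockout (2.09 ± 0.23 SE, edgeR adjusted p = 1.74e-05) and from 19.1 and 19.4 CPM to 96.5 and 93.5 CPM in the H3.3K27A line (2.31 ± 0.23, 9.61e-06). Knockout day 6 library 1 was the low one, and the change in the knockout was 2.43 without it and 1.61 without library 2. Grm2 read 1.2 and 3.81 CPM at day 6 of the knockout beside 1.09 and 0.718 CPM at day 0, and 1.65 and 1.32 CPM at day 6 of the H3.3K27A line beside 1.28 and 2.2 CPM. Its change was called in the knockout (1.5 ± 0.59, edgeR adjusted p = 0.0401) and became 0.43 without day 6 library 2. It was not called in the H3.3K27A line (-0.19), where the groups overlapped.

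Gabrp set the knockout apart at day 6. The knockout libraries read 0.367 and 0.266 CPM, those of wild type 1.39 and 2.18 CPM, and those of the H3.3K27A line 2.44 and 1.96 CPM. The knockout lay below both other lines without overlap, and the other lines overlapped each other. At day 0 Gabrp was not called between the lines, but the H3.3K27A line against the knockout had an edgeR unadjusted p below 0.05. Its change from day 0 to day 6 was not called different between the knockout and either other line. Whether the gap at day 6 arose after day 0 is thus not shown. Against wild type the difference was -2.48 ± 0.42 (SE, edgeR adjusted p = 0.00762), the 1 subunit called in a contrast where 11.4% of all genes were (6.98% higher, 4.42% lower). The value was -2.73 without knockout library 1 and -2.25 without library 2, and both were called. Without wild-type library 2 it was -2.12 and was not called, and DESeq2 gave a change of -2.52 with no adjusted p. The H3.3K27A line was above the knockout by 2.79 ± 0.42 (0.00203), or 3.05 and 2.57 without knockout library 1 and 2, with Grin1 the only other of 2 calls where 18.7% of all genes were called (9.03% higher, 9.64% lower). The trophoblast and surface ectoderm markers summed to 399 to 936 CPM in the knockout at day 6, overlapping 535 to 661 CPM in wild type, and their part in the Gabrp difference was not tested.

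Between lines at the same day, few other subunits differed, and the counts at day 6 moved when either knockout day 6 library was left out. At day 0, edgeR called 0 of 25 subunits in each contrast, against 0.122% of all genes for the knockout and 1.73% for the H3.3K27A line, both against wild type, and 1.27% for the H3.3K27A line against the knockout. The counts at an unadjusted p below 0.05 were 0, 3 and 3, and DESeq2 called 0 in each. At day 6, the H3.3K27A line against wild type gave 0 calls by edgeR (2.04% of all genes), 7 at an unadjusted p below 0.05 and 1 by DESeq2.

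The knockout libraries enter that contrast only through the shared spread. Without day 6 library 1 of the knockout, 8 subunits were lower in the H3.3K27A line than in wild type and 0 higher, against 14.3% of all genes (7.11% lower), and without library 2 the count was also 8 (14.3% of all genes, 6.85% lower). Without library 1 they included Grin1 (-0.94 ± 0.22 SE), Grin3a (-1.23 ± 0.30), Grik3 (-0.49 ± 0.13), Grid1 (-0.92 ± 0.27), Grm2 (-1.04 ± 0.32) and Grm4 (-0.98 ± 0.30). Without library 2 the values were nearly the same, for example -0.93 for Grin1 and -1.22 for Grin3a. The H3.3K27A and wild-type libraries are the same in both fits, so this likeness is no separate support. Grin3a, for example, read 0.747 and 0.932 CPM in the H3.3K27A line beside 1.81 and 2.09 CPM in wild type. Neuron markers also summed lower there, to 161 to 224 CPM beside 238 to 425 CPM, with 0 of 9 tested markers called in that contrast with all libraries. Their part was not tested.

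In the knockout against wild type at day 6, the left-out library set even the direction of Gabbr1, which was 0.39 without knockout library 1 and -0.79 without library 2. The knockout libraries read 31.2 and 71.8 CPM of Gabbr1, on either side of the wild-type 55.5 and 52.0 CPM. Without library 1 the contrast gave 3 calls against 14.4% of all genes, and without library 2 it gave 8 against 40.9%. The H3.3K27A line against the knockout gave 8 calls (26.4% of all genes) and 5 (39.5%) in the same order, with Gabrp and Grin1 called in both. The change in the H3.3K27A line minus that in the knockout gave 6 (13.9%) and 4 (26.5%). The change over time in the knockout minus that in wild type gave 0 calls by edgeR (0.0813% of all genes), 0 at an unadjusted p below 0.05 and 0 by DESeq2, and 3 without library 2 (19.1%).

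Most subunit promoters carried an H3K27me3 peak in stem cells, and few held an H3.3 peak. A promoter was taken as 1000 bases to either side of a curated RefSeq start, and counted when a filtered peak overlapped it by at least 1 base in both duplicates. At day 0, 33 of 52 subunit promoters (63.5%) had an H3K27me3 peak, beside 18.5% of all 23388 genes with a start. At day 6, 23 (44.2%) had one, beside 11.4%. H3.3K27me3 peaks were at 13 (25%, beside 11.6%) at day 0 and 3 (5.77%, beside 2.77%) at day 6, when its libraries held the fewest tags (30449762 and 34195568) and 26215 and 14483 filtered peaks, beside 14796 and 12690 at day 0. Its count with either duplicate alone was 18 to 24 at day 0 (17.5 to 18.5% of all genes) and 5 to 11 at day 6 (5.3 to 10.3%).

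H3.3 peaks were found at 5 subunit promoters (9.62%) at day 0 and 1 (1.92%) at day 6, beside 38.3% and 26.0% of all genes. The 5 were Gabbr1, Grik3, Grin1, Grin2d and Glra3. H3 peaks were at 0 and 1 promoters (5.55% and 2.18% of all genes). Glra3, a retinal and spinal glycine receptor subunit, overlapped wide regions in the authors' deposited table, of 253 kb for H3, 284 kb for H3K27me3 and 86.9 kb for H3.3.

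**Figure D4:**
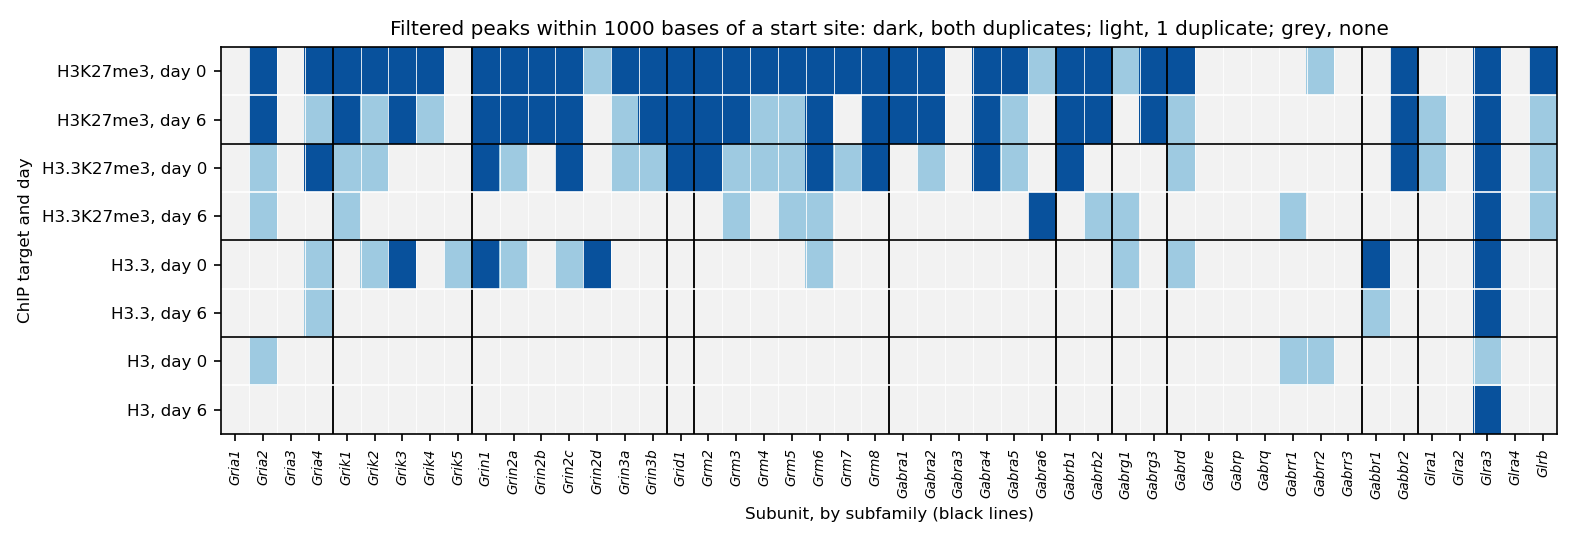
Promoter peaks of 48 subunits (columns, by subfamily) for 4 antibody targets at days 0 and 6 (rows), dark where both duplicates have a peak, light where 1 has and grey where none has. The H3K27me3 rows hold 31 dark cells at day 0 and 21 at day 6.

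By subfamily, 6 of 7 NMDA subunits carried H3K27me3 at day 0 and 5 did at day 6. Kainate subunits had 4 of 5 and then 2, and AMPA subunits 2 of 4 and then 1. GABA-A alpha subunits had 4 of 6 and then 3. GABA-B subunits had 1 of 2 at both days, and glycine subunits 2 of 5 and then 1.

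Over time, 22 subunits had the H3K27me3 peak at both days, 11 at day 0 alone, 1 at day 6 alone and 18 at neither. Over all genes with a start, the shares in that order were 9.68%, 8.81%, 1.76% and 79.8%, beside 42.3%, 21.2%, 1.92% and 34.6% of the subunits. Those at day 0 alone included Gabra5, Gabrd, Glrb, Gria4, Grik2, Grik4, Grin3a, Grm4, Grm5 and Grm7. Of those 11, 10 still had a peak in 1 duplicate at day 6 and 1, Grm7, had none. The loss by day 6 is thus a change from both duplicates to 1 for all of them but Grm7. The 18 with neither included the abundant Gabbr1, Grik5 and Grin2d, and also Gria1, Glra1 and Gabrp. All 13 subunits with an H3.3K27me3 peak at day 0 also had an H3K27me3 peak, as did 85% of all promoters with an H3.3K27me3 peak. They were 39.4% of the 33 subunits with H3K27me3, beside 53.1% of all promoters with it.

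Peaks and RNA changes were set side by side for the tested subunits, although the RNA libraries and the ChIP libraries are separate samples. Of 33 subunits with an H3K27me3 peak at day 0, 11 were tested in 2019, and from day 0 to day 6 9 were higher, 1 (Grin1) lower and 1 not called. Of 19 without, 7 were tested, and 6 were higher, 0 lower and 1 not called. In 2020, 14 with the peak were tested, and 7 were higher, 3 (Grin1, Grik3 and Grm6) lower and 4 not called. Of those without, 11 were tested, and 5 were higher, 2 lower and 4 not called. The tested subunits include those that passed the filter through the day where they are high. Of all genes tested, 41.4% were higher and 36.6% lower in 2019, and 36.0% and 34.8% in 2020. Those shares were not split by peak, so a link between peak and RNA change was not tested.

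Grin1 and Grik3 had peaks of both H3K27me3 and H3.3 at day 0. The authors' peak enrichments over background at Grin1 were 1.89 and 2.46 for H3K27me3, 2.09 and 2.37 for H3.3K27me3 and 3.26 and 2.03 for H3.3 at day 0. At day 6, H3K27me3 remained at 1.87 and 2.31, and the H3.3 and H3.3K27me3 peaks were absent from both duplicates. Grik3 had H3K27me3 enrichments of 1.89 and 2.92 at day 0 and 3.46 and 2.00 at day 6. Grm2 had H3K27me3 enrichments of 5.03 and 4.15 at day 0 and 2.74 and 3.23 at day 6. Grin2c had 4.09 and 4.30, then 4.18 and 3.08, and rose in RNA in 2019 with a peak at both days.

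The authors' deposited table of differential regions compares day 0 with day 6 over the duplicates. In the authors' deposited table, 35 subunit promoters overlapped an H3K27me3 region, of which 21 were higher at day 0 and 0 at day 6, beside 52.5% and 2.90% of all promoters with such a region. The strongest of the subunits tested in RNA was Grm4, with a log2 difference of 0.62 (FDR 1.7e-10) and a signal of 1195 and 1336 at day 0 and 846 and 804 at day 6 in the authors' deposited table. Grid1 followed with 0.61 (FDR 1.62e-09), and Grm2 was also among those higher at day 0 (0.38, FDR 0.00125) in the authors' deposited table. Grin1 (0.05, FDR 0.747), Grik3 (-0.11, FDR 0.361), Grin2c (0.13, FDR 0.304) and Grik4 (0.01, FDR 0.97) were not called in the authors' deposited table.

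For H3.3, 9 subunit promoters overlapped a region in the authors' deposited table, 6 of them higher at day 0 and 0 at day 6, beside 60.8% and 5.13% of all promoters with a region. Gabbr1 had a log2 difference of 0.75 (FDR 4.54e-51), with a signal of 9047 and 8764 at day 0 and 5486 and 5073 at day 6 in the authors' deposited table, over a region of 207 kb that reaches far beyond the gene's start. Grin1 (0.62, FDR 1.61e-16), Grik3 (0.57, FDR 2.08e-11) and Grik5 (0.46, FDR 4.75e-11) were also higher at day 0 in the authors' deposited table. H3.3 signal over the 63.6 kb region at Grik5 was lower at day 6 while Grik5 RNA rose, whereas at Grin1 both fell. The Grik5 region (chr7:25069298-25132918) lies mostly upstream of the gene's start. At neither day did the Grik5 promoter have an H3.3 peak in both duplicates. For H3, the authors' deposited table had regions at 3 subunit promoters, with Gabrr1 higher at day 0 (54.4% of all promoters with a region) and Glra3 at day 6 (3.74%).

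Sequence upstream was at hand for 36 of the 52 subunits. Those with an H3K27me3 peak at day 0 held a median of 16 CG pairs in 250 bases (22 subunits, 2 to 42), those without a median of 5 (14 subunits, 0 to 21), and all 27025 symbols with sequence a median of 6 (0 to 56). The ranges overlapped: Gabre and Gabrq held 21 and 19 without a peak, and Grin3b held 2 with one.

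**Figure D5:**
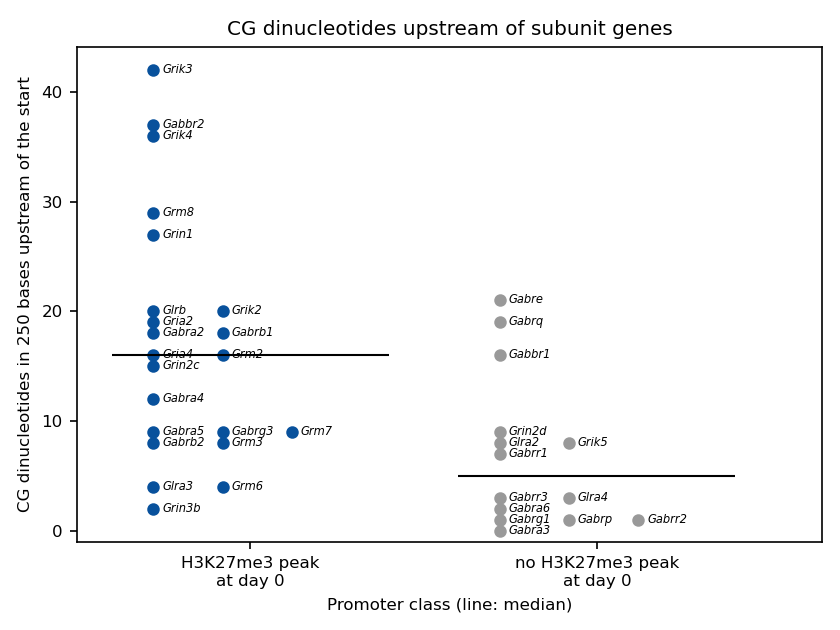
Number of CG pairs in the 250 bases upstream of 36 subunits, with 1 point a subunit, split by an H3K27me3 promoter peak at day 0, and bars at the medians of 16 and 5. Grik3 (42) is the highest of those with a peak, and Gabbr1 (16) and Grik5 (8) are among those without.

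The letters TTCAGCACC and GGACAG, the ends of the element bound by the neuronal gene repressor REST, and GGGCGG, the GC box, were searched on both strands. Percentages are over single promoters, of which a gene can have several. A subunit was counted if any of its promoters matched, so the subunit counts and the percentages are not in like units. TTCAGCACC lay in 0.301% of 32851 promoters and in 1 of the 36 subunits, Grm2, at 242 bases upstream in the sequence printed above. GGACAG followed at 226 bases on the same strand, with 7 bases between them, and by itself lay in 18.7% of promoters and 16 of 36 subunits. The joined core of the element, CAGCACC and GGACAG with 2 bases between them, lay in 0.0335% of promoters and 0 of 36 subunits. GGGCGG lay in 32.7% of promoters and 20 of 36 subunits, with 6 matches in Grik3 and none in Grin1 or Gabrp.

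Genes that make, move and anchor the transmitters were counted from lists fixed by function. The change of 2020 minus that of 2019 was called downward for 13 of 26 tested genes of synthesis, transport and breakdown, 14 of 38 excitatory and 8 of 19 inhibitory auxiliary genes, and upward for 2, 1 and 1, where 19.9% of all genes tested were called downward and 13.1% upward. Of the list for synthesis, transport and breakdown, 25 of 29 were tested in 2019, with 11 higher and 9 lower at day 6 than day 0 (median log2 change 0.33, beside 0.09 for all genes). In 2020, 27 were tested, with 6 higher and 10 lower (-0.19, beside 0.08). Of all genes tested, 41.4% were higher and 36.6% lower in 2019, and 36.0% and 34.8% in 2020. Slc32a1, the vesicle transporter for GABA and glycine, went from 0.208 to 11.7 mean CPM in 2019, on 3 counts at day 0, and from 0.603 to 0.524 mean CPM in 2020, a difference between years of -6.11 ± 0.90 (SE, edgeR adjusted p = 0.000451). Gad2, which makes GABA, stood at 11.6 mean CPM at day 6 of 2019 and at 0.775 in 2020. Slc1a2, a glutamate uptake carrier, reached 66.1 and 6.75 mean CPM at day 6 of 2019 and 2020, and its difference in change between years was not called (-1.93 ± 2.28, edgeR adjusted p = 0.558).

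Of genes for inhibitory auxiliary subunits and scaffolds, 18 of 22 were tested in 2019, with 16 higher and 0 lower (median 1.86), and 20 in 2020, with 13 higher and 2 lower (0.95). All genes tested had medians of 0.09 in 2019 and 0.08 in 2020, with 41.4% higher and 36.6% lower, then 36.0% and 34.8%. Lhfpl4, which carries GABA-A receptors to synapses, went from 1.65 to 24.8 mean CPM in 2019 (3.90 ± 0.27 SE, edgeR adjusted p = 3.16e-08) and from 5.81 to 4.30 in 2020 (-0.43 ± 0.54, 0.495). The years differed by -4.28 ± 0.56 (0.000209). Of genes for excitatory auxiliary subunits and scaffolds, 33 of 44 were tested in 2019, with 19 higher and 7 lower (0.83), and 37 in 2020, with 15 higher and 11 lower (0.67). The excitatory counts of 2020 lay near the shares of all genes. Olfm1, which binds AMPA receptor complexes, rose in both years, from 6.77 to 100 mean CPM in 2019 and from 9.70 to 33.3 in 2020, and less in 2020 (-2.02 ± 0.23, edgeR adjusted p = 9.91e-05).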

How the data were processed

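RNA-seq and ChIP-seq were measured in the samples described above. Per the file headers, the authors deposited HTSeq counts per gene symbol for each RNA library; strand setting and annotation of the counting are not given in the sources used here. Alignment used STAR 2.5.2a to mm10, per the submitters' processing notes, which also name DESeq2, DiffBind and deepTools. Peaks were called with MACS2 2.2.6 in each library after joining 3 runs, per the file headers, and the authors deposited their fold enrichment, pileup signal and −log10 p-values. The authors' deposited table of differential regions gives log2 concentrations, log2 differences and p-values with FDR for day 0 minus day 6. Count rows that name no gene were left out of library sizes: reads in no feature were 25.7 to 43.3% in 2019 and 11.3 to 16.8% in 2020.

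Members and gene lists were chosen with earlier results of these data known. Counts were fitted with edgeR 4.0.16 (R 4.3.3; filterByExpr, TMM, quasi-likelihood) in the 6 libraries of 2019, the 11 of 2020 and the 7 wild-type libraries of days 0 and 6, over 13593, 14760 and 14451 genes, and adjusted over all of them. The scripts were tested on simulated data. CPM use TMM-scaled library sizes within a year, so levels of the 2 years come from separate scalings. A fold against a group at 0 is a bound at 3 counts, and 95% intervals cover counting error only. Named are called members of at least 1 mean CPM, at most 12 per comparison, and the most abundant of each subfamily; Grm6, Gabrq, Gria2 and others below that level were chosen after their values were seen. Results for some single members are not reported here. Alternatives were DESeq2 1.42.0, RLE factors, no filter, a replicate block, leaving out libraries, wider windows, stricter overlap and only the 5000 strongest peaks.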

Additional observations from a re-analysis of the deposited data

Results flagged for a closer look

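The change from day 0 to day 6 differed between groups, by an interaction test in edgeR, for 6 of the named subunits. The fall of Grik3 was steeper in the H3.3K27A line than in the H3.3A knockout by -0.82 on the log2 scale, a call that ended with the replicate number as a block and without any 1 of 6 libraries of these lines. In wild type, the change of 2020 minus that of 2019 was -0.72 for Gabbr1, -1.66 for Grik3 and -2.18 for Grm4. It was -3.07 for Gabra5, 4.77 for Gabrp and -1.62 for Grik4, and these calls ended without some single libraries. Those of Gabra5 and Grik4 also ended with DESeq2. The share of tested subunits called between the years was close to that of all genes tested, so their number is no result about the subunits.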

How the results depend on the processing

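The low-count filter removed 34 of 52 subunits in 2019 and 27 in 2020, among them the 7 that are only listed at 0, and 1 wild-type day 0 library of 2020 leaves that group's spread to the others. No called log2 change of a named subunit reversed. Of 73 named changes, 66 of the 72 with an adjusted p from DESeq2 kept their call and direction with it, 72 with RLE factors, 73 without the filter and 70 with a replicate block. Leaving out 1 library kept 546 of 602 values.

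The called counts that moved were these, and the cause was not tested. For the knockout against wild type at day 6, DESeq2 gave 0, with no adjusted p for Gabrp, the 1 subunit called by edgeR. For the H3.3K27A line against wild type at day 6, DESeq2 gave 1 and no filter 1. For the change in the H3.3K27A line minus that in the knockout, no filter gave 2 and the replicate block gave 0. Replicate numbers did not pair samples: correlations of same-numbered libraries ran from -0.02 to 0.09 over 3 pairs of groups in 2019 and -0.36 to 0.14 over 10 in 2020. The block also ended the calls of Gria4 at day 3 of 2019 (0.77) and Grm2 in the knockout (1.47).

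With 1 library left out, subunits called ranged over 9 to 11, 15 to 17 and 14 to 17 in 2019 (day 3 against 0, 6 against 3, 6 against 0). From day 0 to 6 in 2020 they ranged over 11 to 18 in wild type, 10 to 19 in the knockout and 10 to 15 in the H3.3K27A line. At day 0 the ranges were 0 to 0 (knockout against wild type), 0 to 2 (H3.3K27A against wild type) and 0 to 1 (H3.3K27A against knockout), and at day 6, in that order, 0 to 8, 0 to 8 and 1 to 8. Differences in change gave 0 to 6 (H3.3K27A minus knockout), 0 to 3 (knockout minus wild type) and 5 to 7 (2020 minus 2019).

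Promoter counts depended on peak strength. With the 5000 strongest peaks per library, H3.3K27me3 had 0 and 1 at days 0 and 6 (2.16% and 0.308% of all genes). H3K27me3 had 6 and 5 (4.33% and 2.51%), and H3.3 had 0 and 0 (3.35% and 2.52%). H3 had 0 at day 6 (0.346%). A window of 2500 bases to either side gave 6 for H3.3K27me3 at day 6 (3.67% of all genes) and 1 for H3 at day 0 (6.8%). With 1 duplicate alone the ranges for H3.3K27me3 were 18 to 24 (17.5 to 18.5% of all genes) and 5 to 11 (5.3 to 10.3%). Those for H3K27me3 were 35 to 36 (23.7 to 24.8%) and 27 to 30 (15.5 to 18.6%). Those for H3.3 were 7 to 12 (44.9 to 48.7%) and 1 to 3 (31 to 42.7%). Those for H3 were 1 to 4 (10 to 16%) and 1 to 3 (4.17 to 5.57%). Taking the most upstream start of each gene alone, chosen after seeing the data, left all 8 counts as they were.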
